A study of Homo sapiens with 12 samples.

Results

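The genes examined here are 35 nuclear genes that encode subunits of respiratory complexes II, III, IV and V, read from the RNA-seq counts of FDX2-iKO ES2 cells. They were taken by symbol from a fixed list, 4 for complex II, 9 for complex III, 10 for complex IV and 12 for complex V, out of 58735 gene identifiers in the count table. All 35 were found in the table, and all 35 passed the filter on low counts that left 16891 genes to be tested. ES2 is a human ovarian carcinoma line. In the FDX2-iKO cells the endogenous FDX2 gene was knocked out by Cas9, and an editing-resistant FDX2 with an HA tag was expressed from a Doxy-dependent TRE promoter, so that Doxy maintained FDX2 and its withdrawal led to FDX2 loss. All 4 groups carried this knockout and transgene and came from a cell clone obtained by limiting dilution. FDX2 loss here means the groups without Doxy against those with Doxy. No group lacked the transgene, so FDX2 loss and the absence of Doxy itself cannot be told apart. The groups were 20% O2 + Doxy, 20% O2 wo Doxy, 3% O2 + Doxy and 3% O2 wo Doxy, with 3 libraries each. Cells at 20% O2 were kept for 6 days with or without Doxy. Cells at 3% O2 had 4 days of preculture at 20% O2 and 3 more days at 3% O2, so oxygen level and total time in culture cannot be told apart. Levels are given as CPM, the count of a gene scaled to its library total after TMM normalization, as mean ± SD over 3 libraries, and changes are log2 fold changes ± SE from edgeR's quasi-likelihood model of all 12 libraries. Genes with an adjusted p under 0.05 (Benjamini-Hochberg, over all genes tested) are termed called. The libraries of a group are described as biological replicates, and how they were grown apart is not stated.

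Library totals lay between 24958386 and 34313637 counts, and mitochondrial genes took 2.38% to 3.26% of them. FDX2 itself had only 2 to 13 counts per library in all 4 groups and was not tested, so the counts could not be used to check the knockout. Among markers of the cell line, KRT7 (417 to 677 CPM), KRT18 (376 to 669 CPM), VIM (2065 to 4176 CPM) and PAX8 (5.59 to 19.3 CPM) were present, while EPCAM and CDH1 stayed under 0.120 CPM. Of markers of other cell types, PTPRC and PECAM1 reached at most 0.198 CPM, whereas the endothelial gene CDH5 lay between 22.1 and 51.4 CPM. In 3% O2 + Doxy, replicate 3 had the lowest level of its group for 26 of the 35 genes. The median over the 35 without this library is given for each comparison that uses it. For genes of the other lists its effect is not given separately.

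Complexes II to V carry electrons from succinate and ubiquinol to oxygen and turn the resulting proton gradient into ATP. Complex II, succinate dehydrogenase, feeds electrons into ubiquinone. Complex III passes them to cytochrome c, and complex IV, cytochrome c oxidase, hands them to oxygen. Complex V is ATP synthase, in which a membrane c-ring turns the central stalk inside a catalytic F1 head that is held in place by a peripheral stalk. Complex II has no subunit from the mitochondrial genome, whereas the other complexes combine nuclear and mitochondrial subunits. FDX2 is a mitochondrial ferredoxin that supplies electrons for Fe-S cluster assembly. Among the 35 genes, SDHB and UQCRFS1 encode subunits that hold Fe-S clusters. Transcription of many nuclear respiratory genes is known to depend on NRF1, GABP (an ETS family factor) and YY1, with the PGC-1 coactivators.

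Promoter sequences are shown for 4 of the genes that fell after FDX2 loss at 20% O2, as examples with and without an NRF1 core. They are the 3 in which a core was found and, of those without, ATP5F1A. COX4I1 and COX5B also fell and had no core in their sequences, which are not printed, so the printed set is not balanced. RefSeq windows on GRCh38.p14, from 250 bases before the transcript start to 50 after it, were at hand for 28 of the 35 genes. The exceptions were SDHC, UQCRB, CYC1, COX6C, ATP5F1B, ATP5F1D and ATP5MC3. Each window is printed 5′ to 3′ on the strand of the gene, with NRF1 cores, a GCGC and a further GCGC parted by a pair of any bases, in capitals. The windows are chr5:218070-218369 on the plus strand for SDHA, chr19:29213102-29213401 on the minus strand for UQCRFS1, chr10:7787927-7788226 on the plus strand for ATP5F1C and chr18:46104178-46104477 on the minus strand for ATP5F1A.
SDHA: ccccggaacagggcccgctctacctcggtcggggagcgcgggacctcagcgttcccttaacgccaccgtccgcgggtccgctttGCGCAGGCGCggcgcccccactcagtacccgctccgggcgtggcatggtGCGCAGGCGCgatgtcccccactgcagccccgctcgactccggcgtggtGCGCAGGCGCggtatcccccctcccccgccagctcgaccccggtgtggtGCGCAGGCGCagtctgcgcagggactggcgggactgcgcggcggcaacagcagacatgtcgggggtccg
UQCRFS1: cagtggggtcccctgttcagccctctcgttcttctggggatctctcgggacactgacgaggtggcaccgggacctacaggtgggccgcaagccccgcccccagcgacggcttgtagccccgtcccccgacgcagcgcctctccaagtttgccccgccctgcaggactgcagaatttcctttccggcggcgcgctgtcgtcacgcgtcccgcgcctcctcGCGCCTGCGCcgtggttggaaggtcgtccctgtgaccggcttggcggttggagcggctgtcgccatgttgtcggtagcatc
ATP5F1C: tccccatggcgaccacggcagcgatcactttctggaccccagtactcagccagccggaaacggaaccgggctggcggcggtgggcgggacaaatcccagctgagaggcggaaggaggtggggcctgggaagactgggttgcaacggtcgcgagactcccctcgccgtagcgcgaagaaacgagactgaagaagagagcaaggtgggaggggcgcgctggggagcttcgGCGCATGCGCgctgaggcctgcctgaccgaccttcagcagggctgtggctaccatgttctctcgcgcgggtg
ATP5F1A: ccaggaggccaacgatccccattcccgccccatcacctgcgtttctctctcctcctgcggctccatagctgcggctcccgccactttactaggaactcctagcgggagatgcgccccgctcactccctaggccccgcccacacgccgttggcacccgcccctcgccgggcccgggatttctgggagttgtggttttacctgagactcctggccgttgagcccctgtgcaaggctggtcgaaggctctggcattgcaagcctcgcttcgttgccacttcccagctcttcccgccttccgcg
The SDHA window held 4 cores, which began at positions −166, −117, −68 and −19 from the transcript start. The windows of UQCRFS1 and ATP5F1C held 1 core each, at −31 and −22, and that of ATP5F1A held none. Over both strands, the NRF1 core was found in 8 of the 28 windows (28.6%), against 8.78% of all 27305 windows of the same length. It was in 2 of 3 complex II windows, 4 of 7 for complex III, 0 of 9 for complex IV and 2 of 9 for complex V. The ETS core CCGGAAG was found in 12 windows (42.9%, against 10.7% of all) and the YY1 core in 3 (10.7%, against 1.28%). The E-box CACGTG was in 3 windows (10.7%, against 7.43%), and the letters ACGTG of the hypoxia response element, which every E-box of this form also holds, in 7 (25%, against 21.6%). CCAAT was found in 11 windows (39.3%, against 35.7%). The windows of the 28 genes had a median GC content of 61%, against 58.3% for all windows. Of the 6 genes with a window that fell after FDX2 loss at 20% O2, the NRF1 core was in 3, the ETS core in 2 and the other motifs in 0. Among the 22 genes with a window that were not called there, the NRF1 core was in 5, the ETS core in 10, the YY1 core in 3, the E-box in 3, the letters ACGTG in 7 and CCAAT in 11. These matches are descriptions of letters and were not tested.

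With Doxy at 20% O2, the transcripts of all 4 complexes were abundant. Divided by exon length, levels in 20% O2 + Doxy ran from 7.68 CPM per kb for ATP5PO, a peripheral stalk subunit, to 412 CPM per kb for ATP5F1B, the catalytic beta subunit of ATP synthase. The median on this per-length scale was 28.9 for complex II, 48.5 for complex III, 61.0 for complex IV and 40.9 CPM per kb for complex V. These values depend on the annotated exon length, which ran from 507 bases for COX8A to 14160 bases for SDHC. Replicates of the 35 genes differed by a median coefficient of variation of 5.43% in 20% O2 + Doxy, 3.19% in 20% O2 wo Doxy, 7.44% in 3% O2 + Doxy and 5.68% in 3% O2 wo Doxy. For genes of at least 10 CPM the corresponding medians were 7.86%, 3.27%, 7.88% and 6.33%.

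The first question was how these transcripts responded to FDX2 loss at 20% O2. Of the 35 genes, 10 were called (28.6%), 1 higher and 9 lower, whereas of all genes tested 35.3% were called, 17.6% higher and 17.7% lower. The share of the 35 that were called was thus no larger than that of genes at large. The median change over the 35 was −0.09, and over all genes 0.01. The genes that fell were SDHA of complex II, UQCRFS1 of complex III, COX4I1 and COX5B of complex IV, and ATP5F1A, ATP5F1B, ATP5F1C, ATP5F1D and ATP5MC3 of complex V. SDHC of complex II was the gene that rose. Groups did not overlap for 14 genes that were lower and 4 that were higher without Doxy, against 25.8% and 26.5% of all genes (52.3% in either direction).

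**Figure D1:**
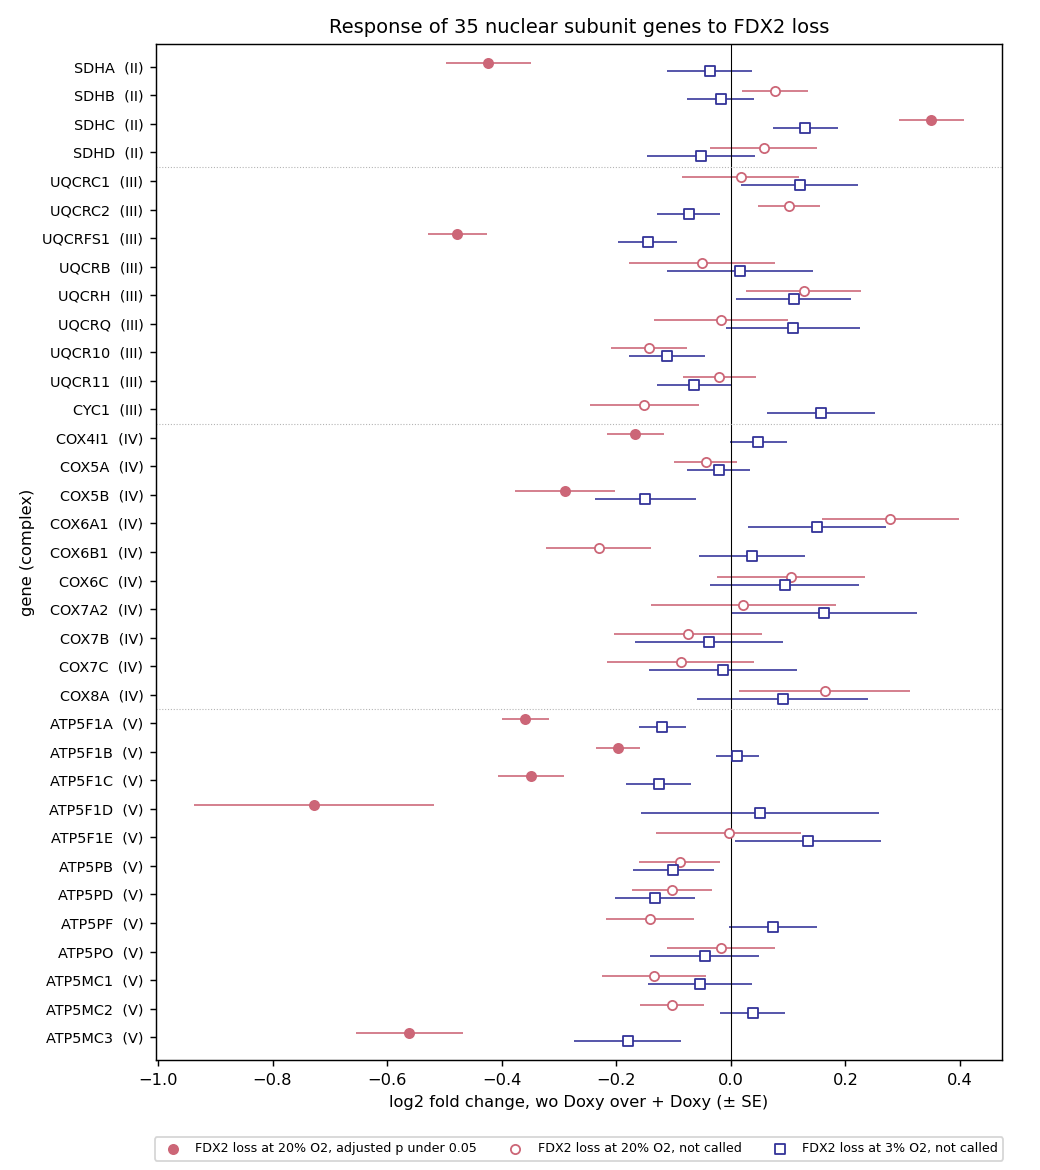
Log2 fold changes ± SE (x axis) of the 35 genes (y axis, complex in brackets), wo Doxy over + Doxy, at 20% O2 (circles) and 3% O2 (squares). Filled symbols mark an adjusted p under 0.05: 10 genes are filled at 20% O2 and none at 3% O2, where the values lie between −0.18 and 0.16.

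The 4 subunits of complex II did not move together. SDHA, the flavoprotein that oxidises succinate (chr5:218241-256700 on GRCh38), had 268, 246 and 230 CPM in the 20% O2 + Doxy libraries and 189, 187 and 178 CPM without Doxy. All 3 libraries without Doxy lay below all with Doxy, and the change was −0.42 ± 0.07 (adjusted p = 0.00118). SDHC, a membrane anchor subunit that binds heme (chr1:161314257-161375340), moved in the opposite direction. Its levels were 151, 160 and 167 CPM with Doxy against 205, 203 and 202 CPM without, a change of 0.35 ± 0.06 (adjusted p = 0.000728) with no overlap. SDHB, the Fe-S subunit (chr1:17018722-17054170), had 75.2, 76.0 and 78.0 CPM with Doxy and 80.0, 82.8 and 79.0 CPM without Doxy, and its change of 0.08 ± 0.06 did not pass the test (adjusted p = 0.336), whereas with library totals, where the median of all genes is itself at 0.13, it was called higher (0.20). SDHD, the other anchor, had a change of 0.06 ± 0.09 (adjusted p = 0.676). The sum over the 4 genes was 564 ± 0.606 CPM with Doxy and 552 ± 5.77 CPM without. Named pseudogenes of SDHA had counts equal to 20.4% of those of SDHA itself, so reads could be split among the copies, and adding them to SDHA left its call in place.

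**Figure D2:**
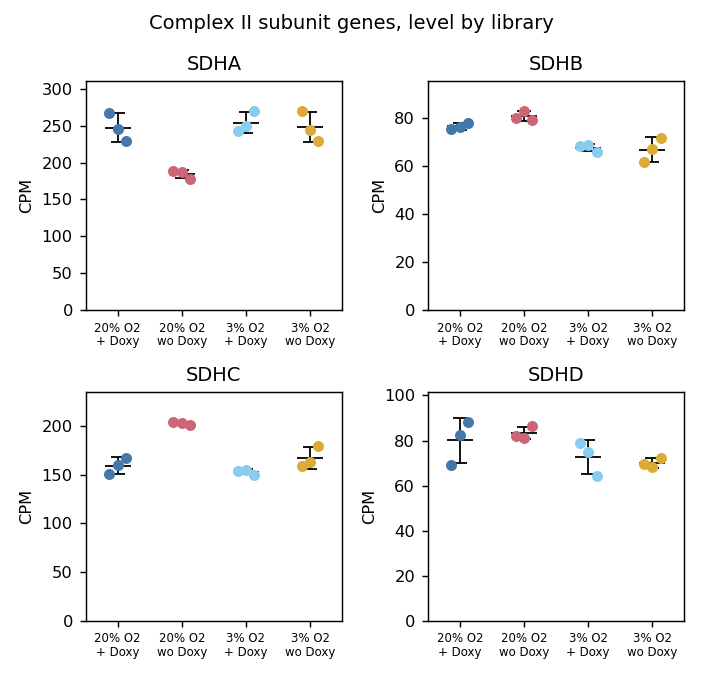
Level (y axis, CPM) of the 4 complex II genes in each library (points) of the 4 conditions (x axis), with the mean and SD of 3 libraries. SDHA is lowest in 20% O2 wo Doxy (178 to 189 CPM), the condition in which SDHC is highest (202 to 205 CPM).

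In complex III, UQCRFS1, the Rieske Fe-S protein (chr19:29205321-29213541), was the called gene. Its levels were 72.4, 69.5 and 66.3 CPM with Doxy and 48.1, 51.8 and 49.7 CPM without Doxy. The groups stood clearly apart, with a change of −0.48 ± 0.05 (adjusted p = 4.82e-05). The core proteins UQCRC1 and UQCRC2 had changes of 0.02 ± 0.10 and 0.10 ± 0.05, and CYC1, the cytochrome c1 subunit, one of −0.15 ± 0.09, none of which passed the test. Of the 5 small subunits (UQCRB, UQCRH, UQCRQ, UQCR10 and UQCR11) 0 were called by edgeR, by DESeq2 or at an unadjusted p under 0.05, with changes from −0.14 to 0.13. Of the 2 subunits with Fe-S clusters, UQCRFS1 therefore fell and SDHB did not pass the test.

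In complex IV, COX4I1 and COX5B fell slightly. COX4I1, the common isoform of subunit 4 (chr16:85798633-85807044), went from 308 ± 10.9 to 275 ± 14.9 CPM (−0.17 ± 0.05, adjusted p = 0.0238). COX5B, a nuclear subunit that binds zinc (chr2:97646040-97648383), went from 74.6 ± 2.34 to 61.1 ± 4.44 CPM (−0.29 ± 0.09, adjusted p = 0.0252). The other 8 genes of the complex were not called by edgeR. Their edgeR values ran from COX6B1 (−0.23 ± 0.09, adjusted p = 0.0745), which DESeq2 called lower (−0.24, adjusted p = 0.0499), to COX6A1, which had 40.4, 39.7 and 40.3 CPM with Doxy and 48.9, 48.1 and 49.1 CPM without Doxy (0.28 ± 0.12, adjusted p = 0.0954). COX6A1 was called higher with library totals (0.40), with a correction for GC content (0.27) and in the fit to the compared libraries (0.28).

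In complex V 5 of 12 genes were called (41.7%, against 35.3% of all genes), and the estimates of all 12 lay below 0, with a median of −0.14. The F1 head is counted here together with the central stalk inside it, as the 5 genes ATP5F1A, ATP5F1B, ATP5F1C, ATP5F1D and ATP5F1E, and 4 of them fell. ATP5F1A encodes the alpha subunit (chr18:46080248-46104334), and its levels were 369, 384 and 378 CPM with Doxy against 289, 306 and 287 CPM without, a change of −0.36 ± 0.04 (adjusted p = 6.65e-05). ATP5F1B, the catalytic beta subunit (chr12:56638175-56646068), had 980, 970 and 919 CPM against 831, 855 and 817 CPM (−0.20 ± 0.04, adjusted p = 0.00218). For both genes every library without Doxy lay below every library with Doxy. ATP5F1C, the gamma subunit of the central stalk (chr10:7788129-7807815), went from 116 ± 5.44 to 91.1 ± 1.06 CPM (−0.35 ± 0.06, adjusted p = 0.000799). ATP5F1D, the delta subunit (chr19:1241746-1244826), had 119, 81.7 and 75.2 CPM with Doxy and 57.0, 56.6 and 52.7 CPM without. Its change of −0.73 ± 0.21 (adjusted p = 0.0194) had the largest size of the 35 in this fit, with 1 library with Doxy well above the other two. With the GC correction (−0.42) or without 20% O2 + Doxy replicate 1 (−0.51, not called) it was smaller than that of ATP5MC3. ATP5F1E, the epsilon subunit, had a change of 0.00 ± 0.13. Summed over the F1 head, levels were 1682 ± 28.7 CPM with Doxy and 1415 ± 34.7 CPM without.

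Outside the F1 head, ATP5MC3, 1 of 3 genes that encode the same c-ring protein (chr2:175176258-175184607), fell from 207, 241 and 252 CPM to 160, 159 and 156 CPM. The groups did not overlap, and the change was −0.56 ± 0.09 (adjusted p = 0.000863). The other two c-ring genes, ATP5MC1 and ATP5MC2, had changes of −0.13 ± 0.09 and −0.10 ± 0.06 and were not called. Of the 4 peripheral stalk genes (ATP5PB, ATP5PD, ATP5PF and ATP5PO) 0 were called by edgeR, by DESeq2 or at an unadjusted p under 0.05, with changes from −0.14 to −0.02. ATP5PF shares 23.1% of its exonic bases with genes on the opposite strand, GABPA among them, and ATP5PO and ATP5PD share 25.4% and 19.1% with other genes. The strand setting of the counting is not stated, so these values are uncertain.

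**Figure D3:**
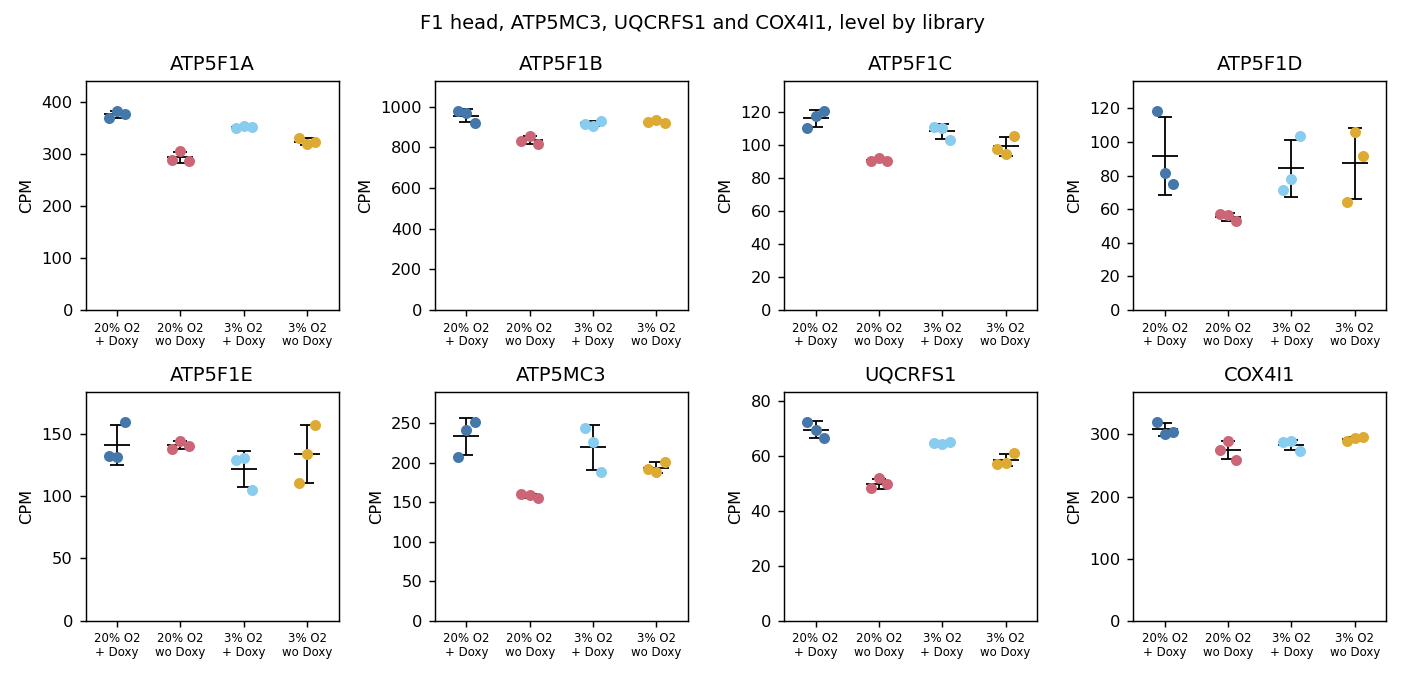
Level (y axis, CPM) of the 5 F1 head genes, ATP5MC3, UQCRFS1 and COX4I1 in each library (points) of the 4 conditions (x axis), with the mean and SD of 3 libraries. In 20% O2 wo Doxy, ATP5F1A lies between 287 and 306 CPM and UQCRFS1 between 48.1 and 51.8 CPM, below every library of the other conditions, whereas ATP5F1E overlaps among conditions.

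The calls at 20% O2 depended on the scaling for the smaller changes. With library totals in place of TMM, the median of all genes shifted from 0.01 to 0.13, and 4 of the 35 genes were called higher and 6 lower, with ATP5F1B (−0.07), COX4I1 (−0.04) and COX5B (−0.17) no longer called and SDHB (0.20, adjusted p = 0.0297), UQCRC2 (0.22) and COX6A1 (0.40) newly called higher. With a correction for GC content the split was 4 higher and 8 lower, COX5B lost its call, UQCRC1 (0.22), UQCRC2 (0.12) and COX6A1 (0.27) were newly called higher, and ATP5F1D moved to −0.42. Without 20% O2 + Doxy replicate 1, ATP5F1D (−0.51, adjusted p = 0.0616) and COX4I1 (−0.15, adjusted p = 0.0589) were no longer called. ATP5F1D (−0.71, adjusted p = 0.0516), COX4I1 (−0.15, adjusted p = 0.0713) and COX5B (−0.28, adjusted p = 0.0798) lost their calls without 20% O2 wo Doxy replicate 3. COX4I1 (−0.17, adjusted p = 0.0716) and COX5B (−0.26, adjusted p = 0.091) did so without 20% O2 wo Doxy replicate 1, and COX5B also without 20% O2 + Doxy replicate 2 (−0.31, adjusted p = 0.051) or replicate 3 (−0.27, adjusted p = 0.0674). The calls of SDHA, SDHC, UQCRFS1, ATP5F1A, ATP5F1C and ATP5MC3 stood under these scalings, the GC correction and each left-out library.

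At 3% O2, FDX2 loss gave 0 calls among the 35 genes by edgeR, against 7.31% of all genes (4.2% higher and 3.11% lower). The median over the 35 was −0.01, and over all genes 0.04. At an unadjusted p under 0.05 there were 4 of the 35 genes, against 3901 of all 16891. They were SDHC (0.13 ± 0.06), UQCRFS1 (−0.15 ± 0.05), ATP5F1A (−0.12 ± 0.04) and ATP5F1C (−0.13 ± 0.06). DESeq2 called 2 of the 35, UQCRFS1 and ATP5F1A, both lower. UQCRFS1 had 64.8, 64.4 and 65.0 CPM with Doxy and 57.1, 57.3 and 61.1 CPM without. ATP5F1A had 351, 355 and 352 CPM with Doxy and 331, 319 and 323 CPM without. For both genes the groups did not overlap, as they did not for 2 higher and 2 lower genes of the 35 in all, against 13.4% and 11.2% of all genes. SDHA had 243, 250 and 270 CPM with Doxy and 270, 245 and 230 CPM without (−0.04 ± 0.07), so its groups overlapped. ATP5F1B (0.01 ± 0.04) and ATP5F1D (0.05 ± 0.21) overlapped too, and the wide error of ATP5F1D leaves room for changes of either sign.

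Replicate 3 of 3% O2 + Doxy bears on this comparison. In it, the 10 complex IV genes had a mean log2 level 0.37 below that of 20% O2 + Doxy, with −0.370 against −0.0504 and 0.000106 in the other two libraries of its group. COX7A2, for instance, had 77.8 CPM there and 125 and 130 CPM in the other two. Without that library the median over the 35 genes was −0.06, over all genes 0.08, and ATP5MC3 was called lower. The part of this library in the other values was not tested.

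The 2 responses to FDX2 loss were then compared with each other, as the difference of the responses, 3% minus 20% O2. Of the 35 genes 4 were called by edgeR (11.4%), each with a positive difference, whereas of all genes 7.29% were called, 3.21% positive and 4.08% negative. They were SDHA (0.39 ± 0.10, adjusted p = 0.0485), UQCRFS1 (0.33 ± 0.07, adjusted p = 0.022), ATP5F1A (0.24 ± 0.06, adjusted p = 0.0324) and ATP5F1B (0.21 ± 0.05, adjusted p = 0.041). Each fell at 20% O2, by 0.42, 0.48, 0.36 and 0.20 on the log2 scale, and was not called at 3% O2, where the changes were −0.04, −0.15, −0.12 and 0.01. ATP5F1D had the largest estimate (0.78 ± 0.29) but did not pass the test (adjusted p = 0.14), and ATP5MC3 (0.38 ± 0.13, adjusted p = 0.109), ATP5F1C (0.22 ± 0.08, adjusted p = 0.126) and SDHC (−0.22 ± 0.08, adjusted p = 0.127) did not either by edgeR. DESeq2 called 6 genes, 5 positive and 1 negative, adding COX4I1 (0.21, adjusted p = 0.0272) and SDHC (−0.23, adjusted p = 0.0417). The GC correction also called these 2, ATP5F1D (0.36), ATP5MC3 (0.44) and ATP5F1C (0.25), and lost ATP5F1B. All 4 calls lie near the threshold and were absent with library totals, without a filter on low counts and with the replicate number as a block. Leaving out 1 library gave 0 calls without 20% O2 + Doxy replicate 2, 20% O2 wo Doxy replicates 1 or 3, or 3% O2 + Doxy replicates 1 or 2, and 1 to 5 calls without any other. Without 3% O2 + Doxy replicate 3 there were 5, with COX6A1 added as negative (−0.29, adjusted p = 0.0188), and the median over the 35 moved from 0.08 to −0.0046. Over these omissions SDHA ran from 0.32 to 0.44, UQCRFS1 from 0.29 to 0.37, ATP5F1A from 0.21 to 0.26 and ATP5F1B from 0.19 to 0.24.

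**Figure D4:**
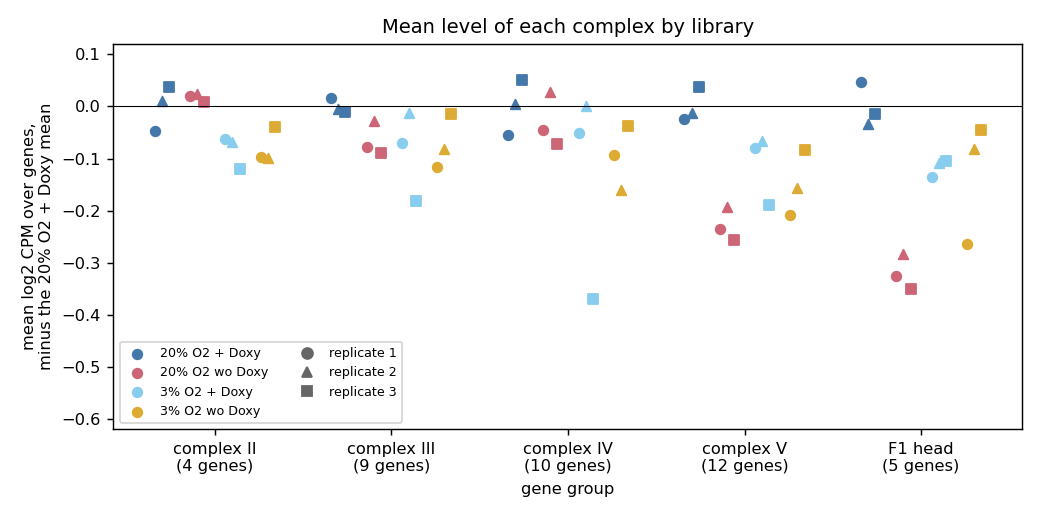
Mean log2 level over the genes of each group (x axis), as the difference from the mean of 20% O2 + Doxy (y axis, log2 units), for each library (colour, condition; shape, replicate). The 20% O2 wo Doxy libraries lie at −0.28 to −0.35 for the F1 head but at 0.01 to 0.02 for complex II, and 3% O2 + Doxy replicate 3 lies at −0.37 for complex IV.

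In cells with Doxy, low oxygen changed 0 of the 35 genes past the threshold by edgeR, against 2.02% of all genes (1.63% higher and 0.385% lower). At an unadjusted p under 0.05 there were 3 of the 35 genes, against 2193 of all 16891. All 3 were lower at 3% O2: SDHB (−0.18 ± 0.06), COX4I1 (−0.12 ± 0.05) and ATP5F1A (−0.10 ± 0.04). DESeq2 called SDHB, which had 68.1, 68.5 and 65.8 CPM at 3% O2 and 75.2, 76.0 and 78.0 CPM at 20% O2, with no overlap. Estimates lay below 0 for 32 of the 35 genes, with a median of −0.11, against 0.00 over all genes. The groups did not overlap for 7 lower and 0 higher genes, against 6.61% and 8.83% of all genes (15.4% in either direction). Without 3% O2 + Doxy replicate 3, the library in which 26 of the genes were lowest, the median was −0.06, and its part in the direction beyond that was not tested.

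In FDX2-deficient cells, 9 of the 35 genes differed between 3% and 20% O2 (25.7%), 6 higher and 3 lower at 3% O2. Of all genes 25.8% were called, 13.9% higher and 11.9% lower, so the share was close to that of genes at large. This comparison and that of FDX2 loss at 20% O2 share the 20% O2 wo Doxy libraries, so that their values are not independent. SDHA was 270, 245 and 230 CPM at 3% O2 and 189, 187 and 178 CPM at 20% O2, a difference of 0.43 ± 0.07 (adjusted p = 0.00226) with no overlap. UQCRFS1 was higher by 0.23 ± 0.05 (adjusted p = 0.00915) and ATP5F1B by 0.15 ± 0.04 (adjusted p = 0.0154). ATP5F1D had 64.3, 106 and 91.7 CPM at 3% O2 and 57.0, 56.6 and 52.7 CPM at 20% O2 (0.66 ± 0.21, adjusted p = 0.0402). ATP5MC3 had 192, 188 and 202 CPM against 160, 159 and 156 CPM (0.29 ± 0.09, adjusted p = 0.0408). ATP5F1A was higher by 0.14 ± 0.04 (adjusted p = 0.0266). Over the 35 genes the groups did not overlap for 9 that were higher and 9 that were lower at 3% O2, against 27.4% and 22% of all genes (49.4% in either direction).

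The 3 genes that edgeR called lower at 3% O2 in FDX2-deficient cells were SDHC, SDHB and UQCRC2. SDHC had 159, 163 and 180 CPM at 3% O2 against 205, 203 and 202 CPM at 20% O2 (−0.28 ± 0.06, adjusted p = 0.00514). SDHB had 61.4, 66.8 and 71.7 CPM against 80.0, 82.8 and 79.0 CPM (−0.27 ± 0.06, adjusted p = 0.00618). UQCRC2, a core protein of complex III (chr16:21952660-21983660), had 112, 111 and 113 CPM against 135, 137 and 132 CPM (−0.26 ± 0.05, adjusted p = 0.00575). SDHD had 69.8, 68.1 and 72.4 CPM against 82.2, 81.3 and 86.3 CPM, with no overlap, but did not pass the test (−0.25 ± 0.09, adjusted p = 0.0746). It was called lower by DESeq2 (−0.27, adjusted p = 0.0422), with library totals (−0.35), with the GC correction (−0.15) and in the fit to the compared libraries (−0.26). Thus edgeR called 3 of 4 complex II genes, SDHA higher and SDHB and SDHC lower, and DESeq2 all 4. Of 10 complex IV genes 0 were called by edgeR, by DESeq2 or at an unadjusted p under 0.05, though the fit to the compared libraries called COX6A1 (−0.26).

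Same-numbered libraries deviated together in this comparison, though whether they were grown as pairs is not stated. With the replicate number as a block, ATP5F1A (0.14, adjusted p = 0.0605), ATP5F1D (0.65, adjusted p = 0.0806) and ATP5MC3 (0.29, adjusted p = 0.0805) were no longer called, and 3 genes stayed higher and 3 lower. With library totals in place of TMM, which moved the median of all genes from 0.07 to −0.04, 1 gene was higher and 4 lower, and with the GC correction 6 were higher and 5 lower. Among those lower with the GC correction was UQCRC1 (−0.18, adjusted p = 0.00898), which had 0.09 ± 0.10 and no call in the main edgeR fit. Without 20% O2 wo Doxy replicate 1, 20% O2 wo Doxy replicate 3 or 3% O2 wo Doxy replicate 2 the number called was 4, 5 and 5. ATP5F1A (0.12 to 0.16) and ATP5MC3 (0.26 to 0.31) lost their calls without any 1 of the 6 libraries, and ATP5F1D without any but 3% O2 wo Doxy replicate 1 (0.50 to 0.83 over the 6). ATP5F1B lost its call without 20% O2 wo Doxy replicate 1 (0.13), 20% O2 wo Doxy replicate 3 (0.13) or 3% O2 wo Doxy replicate 2 (0.15), and UQCRFS1 without 20% O2 wo Doxy replicate 1 (0.19). With the GC correction ATP5F1D moved to 0.26 and ATP5F1B to 0.07, the latter no longer called. SDHA, SDHB, SDHC and UQCRC2 kept their calls under these settings.

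The 6 subunits of complexes III to V that the mitochondrial genome encodes were compared with these nuclear genes. FDX2 loss changed 0 of the 6 by edgeR or DESeq2 at either oxygen level. By edgeR 35.3% of all genes were called at 20% and 7.31% at 3% O2. At an unadjusted p under 0.05 there was 1 of the 6 at 20% and 2 at 3% O2, against 7535 and 3901 of all 16891 genes. MT-CYB, cytochrome b of complex III, had 1383 ± 161, 1278 ± 36.1, 1631 ± 65.9 and 1568 ± 221 CPM in 20% O2 + Doxy, 20% O2 wo Doxy, 3% O2 + Doxy and 3% O2 wo Doxy. It was called between the oxygen levels without Doxy (0.29 ± 0.10, adjusted p = 0.047), though not with the replicate number as a block (adjusted p = 0.0874) and not under 13 of 19 alternatives in all, with values from 0.17 to 0.37. The complex IV genes MT-CO1, MT-CO2 and MT-CO3 had changes after FDX2 loss at 20% O2 of 0.12 ± 0.05, 0.15 ± 0.07 and −0.06 ± 0.11, and MT-ATP6 of complex V one of −0.07 ± 0.13. MT-ATP8, whose gene overlaps MT-ATP6, had 861 CPM in 3% O2 wo Doxy replicate 1 and 104 to 198 CPM in the other 11 libraries. Counts of these overlapping genes are uncertain.

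Other subunits and isoforms of the complexes and the factors that assemble them were counted in the same way. The shares called over all genes were 35.3% for FDX2 loss at 20% O2, 7.31% for FDX2 loss at 3% O2 and 25.8% for 3% against 20% O2 without Doxy. Of 16 further subunits and isoforms 10 could be tested, and FDX2 loss at 20% O2 changed 3 (2 higher, 1 lower). NDUFA4L2, a low-oxygen paralog of the complex IV protein NDUFA4, rose from 1.41, 0.833 and 0.764 CPM to 2.25, 2.72 and 2.41 CPM (1.29 ± 0.29, adjusted p = 0.00566). At 3% O2 it had 0.745, 0.802 and 1.39 CPM with Doxy and 1.37, 0.992 and 1.03 CPM without, and among FDX2-deficient cells it was lower at 3% O2 (−1.12 ± 0.29, adjusted p = 0.0178). That call was lost without 20% O2 wo Doxy replicate 2 (−1.05), 3% O2 wo Doxy replicate 2 (−1.04) or 3% O2 wo Doxy replicate 3 (−1.05). ATP5ME, a membrane subunit of complex V, fell at 20% O2 (−0.53 ± 0.17, adjusted p = 0.0322), a call lost with library totals (−0.41), with the GC correction (−0.41) and without 20% O2 + Doxy replicate 3 (−0.33) or any 1 of the 20% O2 wo Doxy libraries (−0.51 to −0.61). COX4I2, the low-oxygen isoform of COX4I1, had 0 counts in all 12 libraries, which allows up to 0.0874 to 0.12 CPM by library, for counting error only and without TMM scaling. Of 44 assembly factors tested, FDX2 loss at 20% O2 changed 11 (25%), 8 higher and 3 lower, and at 3% O2 1, which was lower. In FDX2-deficient cells 9 differed between oxygen levels, 1 higher and 8 lower at 3% O2, among them COA6 of complex IV assembly (−0.50 ± 0.12, adjusted p = 0.0136), whose call was lost without 20% O2 wo Doxy replicate 2 (−0.49) or 3% O2 wo Doxy replicate 2 (−0.44). With the block these were 1 higher and 6 lower. Of 6 electron carriers 2 rose after FDX2 loss at 20% O2. At 3% O2 0 were called by edgeR, 1 by DESeq2 and 2 at an unadjusted p under 0.05, against 3901 of all 16891 genes at that unadjusted p.

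Of the 37 nuclear complex I subunits, the neighbouring complex with many Fe-S clusters, 13 were called after FDX2 loss at 20% O2 (35.1%, against 35.3% of all genes), 3 higher and 10 lower, with a median of −0.04. NDUFC1 had the largest change of these (−0.62 ± 0.13, adjusted p = 0.00366). At 3% O2 0 of the 37 were called by edgeR, against 7.31% of all genes, with a median of 0.03, and 1 by DESeq2. At an unadjusted p under 0.05 there were 4 of the 37, against 3901 of all 16891 genes. The difference of the responses was called for 0 of the 37 by edgeR, against 7.29% of all genes, and for 1 by DESeq2. At an unadjusted p under 0.05 there were 5 of the 37, against 3956 of all 16891 genes. Whether complex I differs in this from complexes II to V was not tested.

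Of 11 regulators of mitochondrial biogenesis, FDX2 loss at 20% O2 changed 8, 1 higher and 7 lower, with a median of −0.31, against 35.3% of all genes. The list was chosen with earlier results known, and its share was not tested against that of other genes. NRF1, whose core motif is capitalised in the promoters above, had 25.1, 25.7 and 24.0 CPM with Doxy and 16.2, 17.2 and 18.5 CPM without (−0.53 ± 0.08, adjusted p = 0.000639). At 3% O2 it had 23.0, 25.1 and 27.7 CPM with Doxy and 19.4, 22.3 and 22.6 CPM without (−0.23 ± 0.08, adjusted p = 0.121). The coactivator PPARGC1B fell at 20% O2 (−0.56 ± 0.07, adjusted p = 0.000189). It was called lower after FDX2 loss at 3% O2 too (−0.495), from 15.8 ± 1.07 to 11.2 ± 0.783 CPM. There it was the 1 regulator called of the 11, against 7.31% of all genes. PPARGC1A, which encodes PGC-1alpha, instead rose at 20% O2, from 1.48 ± 0.168 to 4.30 ± 0.232 CPM (1.53 ± 0.13, adjusted p = 8.14e-06). The response of PPARGC1A was smaller at 3% O2, with a difference of the responses of −1.08 ± 0.18 (adjusted p = 0.0062). The part of these regulators in the changes of the subunit genes was not tested.

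As a reference for the low-oxygen culture, 8 oxygen-responsive respiratory genes were listed, of which 7 could be tested. With Doxy 2 were higher at 3% O2, against 2.02% of all genes called in either direction. Without Doxy 2 were higher and 2 lower, against 25.8% of all genes. BNIP3 and PDK1, known targets of the hypoxia-inducible factors that act on mitochondria, were higher at 3% O2 with Doxy (1.67 ± 0.07, adjusted p = 6.13e-07, and 1.14 ± 0.07, adjusted p = 5.54e-06). Without Doxy they were higher too, by 1.32 ± 0.07 (adjusted p = 1.62e-06) and 0.70 ± 0.07 (adjusted p = 7.29e-05). After FDX2 loss at 3% O2 both were called lower, BNIP3 (−0.60 ± 0.07, adjusted p = 0.000685) and PDK1 (−0.401). The PDK1 call was lost in the fit to the compared libraries. BNIP3 was also called lower at 20% O2 (−0.256), though not with library totals. The difference of the responses was called for PDK1 (−0.444), but not under 5 of 22 alternatives. HIGD1A, a complex IV associated protein, and LONP1, the matrix protease that degrades COX4I1 in low oxygen, were not called in any of the comparisons, with changes between oxygen levels of −0.21 ± 0.13 and 0.25 ± 0.17 with Doxy. In the same libraries the 35 subunit genes spanned −0.22 to 0.06.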

How the data were processed

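Poly(A) RNA of 12 libraries was sequenced in paired-end mode. The authors aligned the reads with STAR to GRCh38 and counted them per gene with featureCounts, and the deposited values are raw counts, neither normalized nor pooled. Versions, annotation, strand setting and treatment of multiply aligned reads are not given in the sources used here. All 58735 identifiers are in GENCODE v29, and 58207 have a symbol.

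From these, edgeR 4.0.16 in R 4.3.3 gave the fits (filterByExpr, minimum count 10 and minimum total 15, TMM, quasi-likelihood with 4 condition means, 8 residual degrees of freedom). SE is the log2 fold change over the root of F. Steps were tested on simulated data. Same-numbered libraries deviated together (correlations 0.245 to 0.359, against −0.428 to 0.0732 for different numbers) only between the conditions without Doxy. Whether they were grown as pairs is not stated. Replicates differed by more than sampling noise (median chi-square per degree of freedom 1.3 to 3.9).

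The 35 genes and all lists were chosen with earlier results of these data known. Any of the 35 genes, the 6 mitochondrial partners, FDX2, COX4I2, NDUFA4L2, HIGD1A and LONP1 could be named, and from the other lists genes with an adjusted p under 0.05 and a change of at least 0.5 (log2). Every library's value was to be given for the 3 largest called changes in each direction. Which other genes got such values was chosen after seeing them. Alternatives were DESeq2 size factors, library totals, TMM without mitochondrial genes, other filters, a replicate block, fits to the compared libraries, left-out libraries, DESeq2 1.42.0, other thresholds, copies added and a GC correction, with 3 combinations of the block with the GC correction or with fits to the compared libraries added after seeing the data.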

Additional observations from a re-analysis of the deposited data

Results flagged for a closer look

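The response to FDX2 loss differed between 3% and 20% O2 in edgeR's test of the difference itself for 4 of the 35 genes (11.4%, against 7.29% of all genes). They were SDHA (0.39, log2), UQCRFS1 (0.33), ATP5F1A (0.24) and ATP5F1B (0.21). For each of the 4, all 3 libraries of 20% O2 wo Doxy lay below all 3 of 20% O2 + Doxy, as for 25.8% of all genes. Those libraries also enter the test, so this is not separate evidence. At 3% O2 the groups of UQCRFS1 and ATP5F1A did not overlap either, and were lower without Doxy. The adjusted p was 0.0485, 0.022, 0.0324 and 0.041, and no single call stood in more than 6 of the 12 fits that left out 1 library.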

How the results depend on the processing

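For FDX2 loss at 20% O2 the count of 10 genes became 1 with at least 1.5-fold (ATP5F1D) and 7 to 10 with a library left out. At 3% O2 the count of 0 became 2 with DESeq2's test, 1 with the GC correction, 1 with the GC correction and replicate block, and 0 to 1 with a library left out. For 3% against 20% O2 with Doxy it became 1 with DESeq2's test and stayed at 0 to 0 with a library left out. Without Doxy the count of 9 became 5 with library totals, 5 at an adjusted p under 0.01, 1 with at least 1.5-fold and 4 to 7 with a library left out. Fits to the compared libraries gave 13 (6 higher, 7 lower), 12 with the replicate block and 8 with the block and the GC correction. For the difference of the responses the count of 4 became 0 with library totals, 0 without a filter, 0 with the replicate block, 0 at an adjusted p under 0.01, 0 with at least 1.5-fold, 2 with at least 10 counts in every library, 6 with DESeq2's test (5 positive, 1 negative), 8 with the GC correction (7 positive, 1 negative), 7 with the GC correction and the block, and 0 to 5 with a library left out. Apart from the stricter thresholds and the smaller sets of libraries, the cause of these changes was not tested. No value of the 35 genes that was called in the main edgeR fit changed sign. UQCRC1, at 0.09 and not called there for 3% against 20% O2 without Doxy, was called lower with the GC correction (−0.18). Over all genes, 1235 calls for FDX2 loss at 3% O2 became 676 with the block and 3258 with the GC correction, and 1231 for the difference became 615 and 3090.

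Same-numbered libraries deviated together only between the conditions without Doxy, where the block left 6 calls. Elsewhere their correlations were −0.155 to 0.209 for FDX2 loss at 20% O2, −0.610 to 0.628 at 3% O2 and −0.771 to 0.438 for low oxygen with Doxy. Differently numbered libraries reached 0.298, 0.764 and 0.817 in these comparisons, so the correlations do not establish a pairing. There the block gave 10, 0 and 0 calls. With 3 libraries a group, genes of wide spread such as ATP5F1D (SE 0.21) are the least firm.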
